A study of Mus musculus with 4 samples.

Results

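The genes described here encode the proteins of the cytosolic ribosome. They were taken by name alone: every protein-coding gene of GENCODE M1, an annotation of the mouse genome build mm9, whose symbol is Rpl or Rps followed by a number and at most 1 letter. That gave 76 genes of 22380 protein-coding genes, 45 named for the large ribosomal subunit (Rpl) and 31 for the small one (Rps). As a contrast, 97 annotated pseudogenes carry the same symbols with a -ps ending.

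Chromatin accessibility was measured by ATAC-seq, in which the Tn5 transposase cuts and tags open DNA, in cells of the forelimbs and hindlimbs of E11.5 mouse embryos, fixed with formaldehyde before transposition. The mutant embryos carried a stop cassette insertion (3xpA in the sample titles), and the others were wild type. Both genotypes are given with the strain label c57bl6.J X 129S6.sv, and 2 libraries were made of each. The site of the insertion, its zygosity and the number of embryos per library are not given in the labels, nor is it said whether the libraries of a genotype came from separate embryos, so the spread between them may be technical.

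Each ribosome needs every one of its core proteins in equal number, and growing embryonic tissue makes them all the time. Their promoters are a textbook case of constitutive activity: short, CpG-rich, often without a TATA box, and starting transcription in a run of pyrimidines (C or T). That run begins the mRNA as the terminal oligopyrimidine tract, through which its translation follows growth signals. Because the mRNAs are so abundant they were often copied back into the genome, which left many processed pseudogenes without the parental promoter. A few intact copies became genes of their own with use in particular tissues, such as Rpl10l and Rpl39l in male germ cells and Rpl3l in striated muscle.

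The promoter sequences that frame the result are those of the most and the least accessible member with a peak, and of the 3 members with no peak. Each runs 5′ to 3′ on the gene's strand in mm9, from 150 bases before the annotated start of the transcript with the longest coding sequence to 20 bases from it on, and capitals mark each CG dinucleotide. Rpl37 is read from chr15:5066463-5066632 (plus strand), Rpl36 from chr17:56752668-56752837 (plus), Rpl39l from chr16:10170171-10170340 (plus), Rpl10l from chr12:67385369-67385538 (minus) and Rpl3l from chr17:24864624-24864793 (plus).
Rpl37: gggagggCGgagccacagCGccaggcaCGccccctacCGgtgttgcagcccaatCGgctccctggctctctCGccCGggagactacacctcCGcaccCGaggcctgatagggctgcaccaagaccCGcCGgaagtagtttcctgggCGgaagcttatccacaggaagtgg
Rpl36: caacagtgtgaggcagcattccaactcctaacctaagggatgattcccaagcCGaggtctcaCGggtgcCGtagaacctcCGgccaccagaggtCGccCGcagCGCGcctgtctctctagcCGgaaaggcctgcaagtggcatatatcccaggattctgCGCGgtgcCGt
Rpl39l: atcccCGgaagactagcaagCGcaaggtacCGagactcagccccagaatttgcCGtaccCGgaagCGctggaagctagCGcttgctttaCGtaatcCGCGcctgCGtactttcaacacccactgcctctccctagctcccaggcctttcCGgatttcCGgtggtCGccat
Rpl10l: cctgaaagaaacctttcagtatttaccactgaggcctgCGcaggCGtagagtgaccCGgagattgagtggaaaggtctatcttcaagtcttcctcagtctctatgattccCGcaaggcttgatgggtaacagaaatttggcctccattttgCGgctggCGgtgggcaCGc
Rpl3l: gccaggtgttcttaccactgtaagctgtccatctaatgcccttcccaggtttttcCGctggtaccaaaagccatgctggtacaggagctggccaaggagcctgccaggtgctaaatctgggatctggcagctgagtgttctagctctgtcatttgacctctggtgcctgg
These 170-base stretches hold 12 CG dinucleotides in Rpl37, 12 in Rpl36, 14 in Rpl39l, 7 in Rpl10l and 1 in Rpl3l.

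The authors' lists give peak summits of 1 bp with a score. A gene counted as open in a list when a summit lay within 1 kb of any of its annotated transcript starts. Where several did, the one with the highest score stood for the gene. The score was used only as a percentile within its own list, from 0 for the weakest peak to 100 for the strongest, and a gene with no summit was given 0. The stop cassette lists held 79083 and 107827 summits and the wild-type lists 51701 and 68471. Added weak peaks raise the percentile of a strong one, so percentiles are also given after all lists were cut to the 51701 highest-scoring peaks, here called equal length. Read depth is unknown, and in bulk chromatin a promoter open in fewer cells cannot be told apart from one less open in each cell. As a check of the tissue, the mesenchyme regulators Twist1, Msx1, Hoxd13, Hoxa13, Prrx1 and Pitx1 had a promoter summit in all 4 lists, 6 of 10 limb mesenchyme markers, whereas Tbx5 had none. Of the markers of other cells, 0 of 5 for ectoderm, 1 of 4 for endothelium (Kdr), 3 of 4 for blood and 0 of 3 for muscle precursors had one in all 4 lists. In at least 1 list it was 9 of 10 for mesenchyme, 3 of 5 for ectoderm and 3 of 3 for muscle precursors. For endothelium and blood it was again 1 of 4 and 3 of 4. These counts do not measure the share of each cell type. The 4 liver markers Alb, Afp, Apoa1 and Ttr had none in any list.

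Nearly every cytosolic ribosomal protein promoter was open in these limbs, in all libraries alike. A summit was present in all 4 lists for 73 of the 76 genes (96.1%), against 57.5% of all protein-coding genes. No member was open in only some of the lists. The 31 Rps genes were all open, and the 3 exceptions were Rpl3l, Rpl10l and Rpl39l. Stop cassette and wild-type libraries therefore had the same count, 73 in each (difference 0, exact permutation p = 1, two-sided, 2 against 2 libraries). This count does not show that the promoters were equally accessible. The number open in all 4 lists stayed at 73 at equal length and with a window of 500 bp. It was 70 with only the most upstream start of each gene and 72 with a stricter score (above 5.83). Leaving out 1 library could not change it, because no member was open in only some of the lists.

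The 3 closed members each have a ubiquitous paralogue, and that paralogue was open. Rpl3, a large-subunit core protein, ranked at the 94.2 and 89.4 percentiles of stop cassette replicates 1 and 2 and at 56.2 and 89.3 of wild-type replicates 1 and 2. The striated-muscle form Rpl3l (ENSMUSG00000002500.8) had no summit nearer than 3431 bp to an annotated start, and the nearest summits of the 4 lists were clustered 3431 to 3455 bp upstream. Rpl10, on the X chromosome, ranked at 92.8, 95.2, 90.1 and 93.0 in the same order of libraries. For its intronless-copy paralogue Rpl10l (ENSMUSG00000060499.6) the nearest summits lay 834434, 186626, 207864 and 25411 bp upstream, so no list had an opening anywhere near it. Rpl39, also X-linked, ranked at 94.0, 97.15, 87.6 and 83.1. For Rpl39l (ENSMUSG00000039209.6) the nearest summit in each list lay 22631 to 22681 bp downstream. In another pair both genes were open. Rps27 ranked at 89.9, 93.85, 89.6 and 88.4, and its close relative Rps27l, a p53 target gene, ranked at 97.3, 94.2, 92.25 and 97.0.

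The closed paralogues did not share one kind of promoter. Over 300 bases around the start (250 before, 50 after), CpG dinucleotides occurred at 0.0882 of the number expected from the C and G content in Rpl3l, at 0.643 in Rpl10l and at 0.837 in Rpl39l. The median was 0.844 over the 76 members and 0.550 over all 22372 protein-coding genes with a sequence. Rpl3l had the lowest value of any member. Rpl39l sat near the members' median, and its sequence above holds 2 matches to the ETS core motif CCGGAAG, at positions -146 and -92 counted from the start base as 0. Rpl37 holds the same motif at -23, within the printed stretch, and at 34, beyond it.

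Pseudogenes with ribosomal protein names were almost all closed. Of 97, a summit within 1 kb was found in all 4 lists for 1 and in any list for 3. Among the 5209 annotated pseudogenes of all kinds, 2.36% had one in all 4 lists. A further 53 genes have a -ps symbol but a protein-coding biotype in this annotation, and of those 0 were open in all 4 lists and 3 in any. The one exception was Rpl34-ps1 (ENSMUSG00000068396.7, chr6:71074583-71074994, plus strand). Its percentiles were 77.1 and 93.3 with the stop cassette and 58.1 and 78.7 in wild type. All 4 summits lay 671 to 677 bp downstream of the nearest annotated start of the pseudogene, and the nearest start of a protein-coding gene, that of Thnsl2, was 7362 bp away. With a window of 500 bp no pseudogene of this name family was open in all 4 lists. The peak names record a mapping quality of 30, and how many reads from near-identical copies were dropped was not tested.

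**Figure D1:**
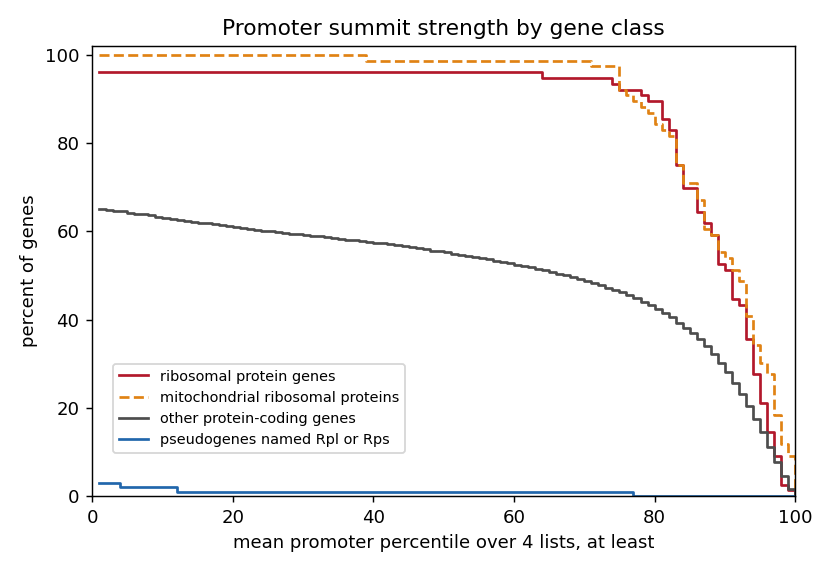
The horizontal axis is the mean promoter percentile over the 4 lists, and the vertical axis is the percent of genes of a class that reach at least that value. The 76 ribosomal protein genes (red) and the 76 mitochondrial ones (orange, dashed) are still at 92.1 percent at a percentile of 75. There other protein-coding genes (grey) are at 46.2 percent, and above 0 the 97 pseudogenes (blue) stay at or below 3.09 percent.

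Among open promoters, ribosomal protein genes were ordinary in strength. For the 73 open members the median of the mean percentile over the 4 lists was 90.5, with quartiles of 83.7 and 94.4. For all 12860 protein-coding genes open in all 4 lists it was 89.7, with quartiles of 79.3 and 95.03. A mean percentile over 90 was reached by 53.4% of the open members and 48.9% of the open protein-coding genes. A percentile over 95 in every list was reached by 6 members (8.22%), against 13.1% of the open protein-coding genes. The family thus stood out from all genes by how many of its promoters were open, while its open promoters ranked near the middle of other open promoters. No test was made of either difference.

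Rpl37, Rpl15, Rps21 and Rps27a were among the strongest members. Rpl37 (ENSMUSG00000041841.7, chr15:5066613-5069140), a zinc-binding protein of the large subunit, ranked at 99.3 and 99.85 in the stop cassette lists and at 99.1 and 99.8 in the wild-type lists. Rpl15, whose start lies within 1 kb of that of Nkiras1, ranked at 97.8 and 98.7 with the stop cassette and at 99.9 and 99.5 in wild type. Rps21 ranked at 98.5, 96.95, 97.8 and 97.8 in the order of libraries used above. These genes were near the top of every list. Rps27a, which encodes ubiquitin fused to a small-subunit protein, ranked at 99.1, 97.8, 95.7 and 97.7.

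Rpl36, Rpl23a, Rpl8 and Rps4x were among the weakest open members, and in all of these but Rpl23a wild-type replicate 1 gave the lowest value. Rpl36 (ENSMUSG00000057863.5, chr17:56752818-56753666) was the lowest of all, at 74.7 and 74.8 in the stop cassette lists and 38.3 and 67.2 in the wild-type lists. Rpl23a, at the peptide exit tunnel, ranked at 78.75, 81.0, 69.7 and 65.3, and here wild-type replicate 2 was the lowest. Across the 73 open members wild-type replicate 1 was the lowest of the 4 lists for 48 (65.8%), against 52.9% of the open protein-coding genes. In the lists as deposited it held 19 members under the 70 percentile, wild-type replicate 2 held 3 and the stop cassette lists 0. The share of all open protein-coding genes under 70 was not counted. At equal length the stop cassette lists also held members under 70, such as Rpl36 at 61.2 and 47.5. Wild-type replicate 1 is also the shortest list, and the part of its length in its low values was not tested.

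**Figure D2:**
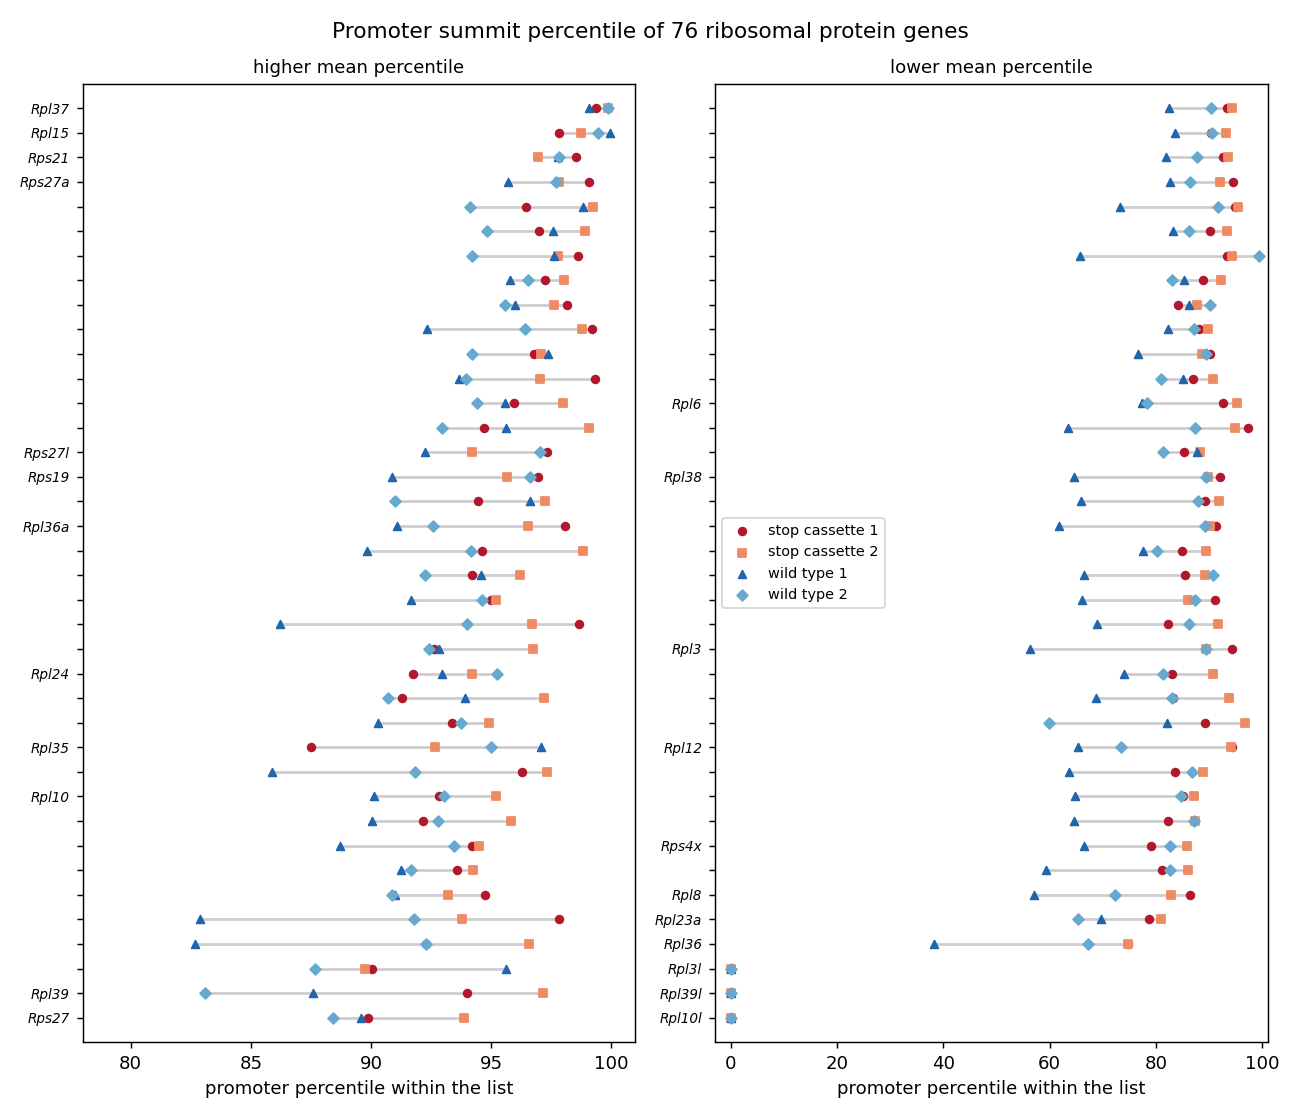
Each row is one of the 76 members, ordered by its mean over the 4 lists and labelled for a selection of those described in the text, and each point is its promoter percentile in 1 library (the axis of the left panel starts at 78, that of the right panel at 0). The grey line spans the 4 libraries. Rpl3l, Rpl39l and Rpl10l sit at 0 in every list, and the long lines to the left mostly end in wild-type replicate 1, as in Rpl36 at 38.3.

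The spread over libraries differed between members. For 17 open members the 4 percentiles fell within 5 points of each other, and for 19 they spanned more than 20 points. The 4 X-linked members were all open. Besides Rpl10 and Rpl39, Rpl36a ranked at 98.1, 96.5, 91.1 and 92.6, and Rps4x ranked at 79.1, 85.8, 66.55 and 82.6. A few members were singled out after their values had been seen because mutations in them have known effects in the mouse or in people. Rpl38, mutated in Tail-short mice and known for its part in the translation of Hox mRNAs, ranked at 92.0, 89.8, 64.6 and 89.35. Rpl24, mutated in Belly spot and tail mice, ranked at 91.7, 94.2, 92.95 and 95.3. Rps19, the gene most often mutated in Diamond-Blackfan anaemia, ranked at 96.9, 95.7, 90.9 and 96.6.

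The rest of the translation machinery was open as well. All 10 ribosomal protein genes whose symbols the naming rule misses, such as Rplp0, Rplp1, Rplp2 and Rpsa, had a summit in all 4 lists, with a median mean percentile of 89.65. Among them Rpl22l1, a paralogue of Rpl22, ranked at 98.5, 98.95, 95.7 and 99.2. Rpl7l1 was the least accessible, at 83.5, 90.03, 26.7 and 69.45. All 14 translation factors and related genes with terminal oligopyrimidine mRNAs (median 93.9) and all 13 ribosome assembly genes (median 92.8) were open in all 4 lists. Of the 76 mitochondrial ribosomal proteins, 75 were, with a median of 91.7 among those 75. The one not open in all lists was Mrps34, with 52.2, 54.0, 0 and 46.7.

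Sequence features that recur in the promoters were counted in the same 300 bases on both strands, without regard to overlaps between motifs. The start used for the sequence is not always the one nearest the summits. At Rpl13a it is base 52391601 of chromosome 7, while the strongest summits lay at 52384200 to 52384286. At Rpl30 and Rpl35, too, the strongest summit of every list lay outside the 300 bases. The counts of motifs and pyrimidine runs thus partly describe sequence away from the opening. The ETS core CCGGAAG, bound by GABP, was found in 24 of 76 members (31.6%), in 36.8% of the mitochondrial ribosomal protein genes, in 17.1% of protein-coding genes open in all 4 lists and in 10.9% of all protein-coding genes. The YY1 core AAGATGGC was found in 5 members (6.58%), against 17.1% of the mitochondrial set, 4.51% of open protein-coding genes and 3.39% of all genes. The SP1 core GGGCGG was less frequent in members (52.6%) than in open protein-coding genes (66.1%), and above the 44.7% of all genes. TATAAA occurred in 10.5% of members, which is below the 13.4% of all genes and above the 6.59% of open protein-coding genes. The NRF1 half-site GCGCATGC was in 5.26% of members, 5.15% of open protein-coding genes and 3.31% of all genes. A match is a string of letters and was not tested as a binding site.

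A pyrimidine run near the start was found more often in the cytosolic family than in the mitochondrial one. The longest run of C and T between 20 bases before the start and 20 after was at least 8 bases in 30 members (39.5%), against 13.2% of the mitochondrial ribosomal protein genes, 14.7% of open protein-coding genes and 15.3% of all. The limit of 8 was chosen for this description. A run counted wherever it lay in this window and need not hold the start base. At Rps25 it began 20 bases before the start and was 12 long, and at Rps12 it began 8 bases after it. The start base itself was C in 17 members (22.4%). That share was 15.8% in the mitochondrial set, 16.9% in open protein-coding genes and 15.6% in all. The longest, 24 bases, was at Rps2, followed by 20 at Rpl34, 19 at Rps23 and 17 at Rpl32. Neither the ETS core nor the run separated strong from weak members by much. Open members with an ETS core had a median mean percentile of 92.7 (n = 23) and those without 90.3 (n = 50). Open members with a pyrimidine run of at least 8 had 90.7 (n = 30) and those without 90.5 (n = 43). The 5 members with the YY1 core, Rpl18, Rpl23a, Rpl35a, Rps15a and Rps27, had a median of 82.6, against 91.3 for the other 68.

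**Figure D3:**
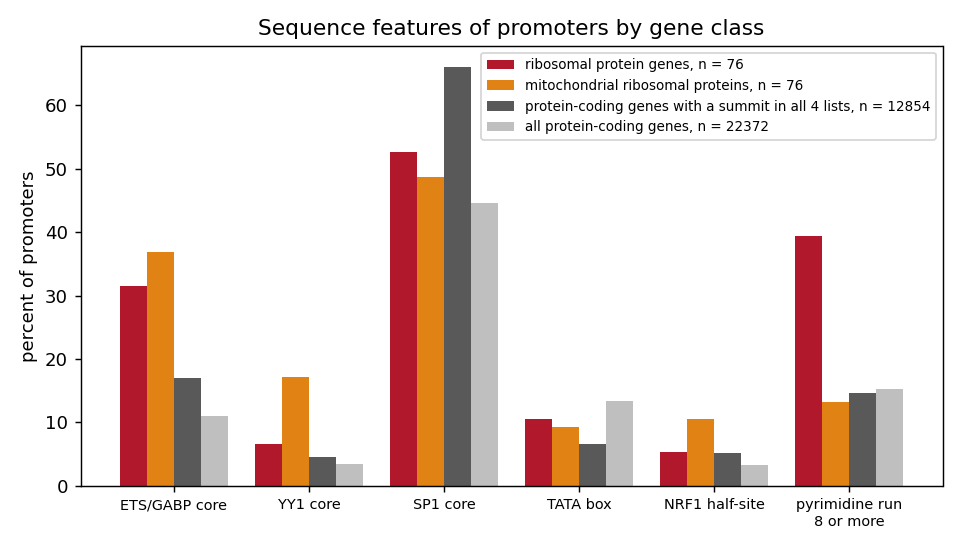
Bars give the percent of promoters in a class that hold each motif on either strand, or a pyrimidine run of at least 8 bases at the start, with the number of promoters in the key. The ETS core is at 31.6 percent in the cytosolic and 36.8 percent in the mitochondrial family, whereas the pyrimidine run is at 39.5 and 13.2 percent.

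The openings were centred on the starts. In the stop cassette lists the median summit of the 73 open members lay 21 and 17 bp upstream of the nearest annotated start, and in the wild-type lists 42 and 23 bp upstream. The group means were -19.0 ± 2.83 bp and -32.5 ± 13.4 bp (SD, n = 2 each), and the groups did not overlap (exact permutation p = 0.33, two-sided, the smallest p that 2 against 2 libraries can give). Summits within 100 bp of a start made up 80.8% and 72.6% of members in the stop cassette lists and 75.3% and 79.45% in the wild-type lists. Among open protein-coding genes the share was 61.7% to 63.4%. Members have a median of 4 annotated starts and open protein-coding genes 3, which gives a summit more chances to be near one. With only the most upstream start of each gene the mean of the members' medians was 5.13 bp, downstream of the start.

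The position was about as reproducible as at other promoters. Over the 4 lists the strongest summit of a member moved by a median of 101 bp, against 111 bp at all open protein-coding genes, and it stayed within 50 bp for 38.4% of members and 26.2% of those genes. As at most open promoters, several summits usually lay within 1 kb. More than 1 was called for 71 and 70 open members (97.3% and 95.9%) in the stop cassette lists, against 85.9% and 88.6% of open protein-coding genes. In the wild-type lists it was 60 and 67 members (82.2% and 91.8%), against 77.9% and 84.6%. The most distant summit that stood for a member was that of Rpl24 in wild-type replicate 2, 768 bp downstream, while in the other 3 lists its strongest summit lay between -138 and -90 bp. No member had its nearest summit just outside the 1 kb window: the closest was that of Rpl3l at 3431 bp.

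**Figure D4:**
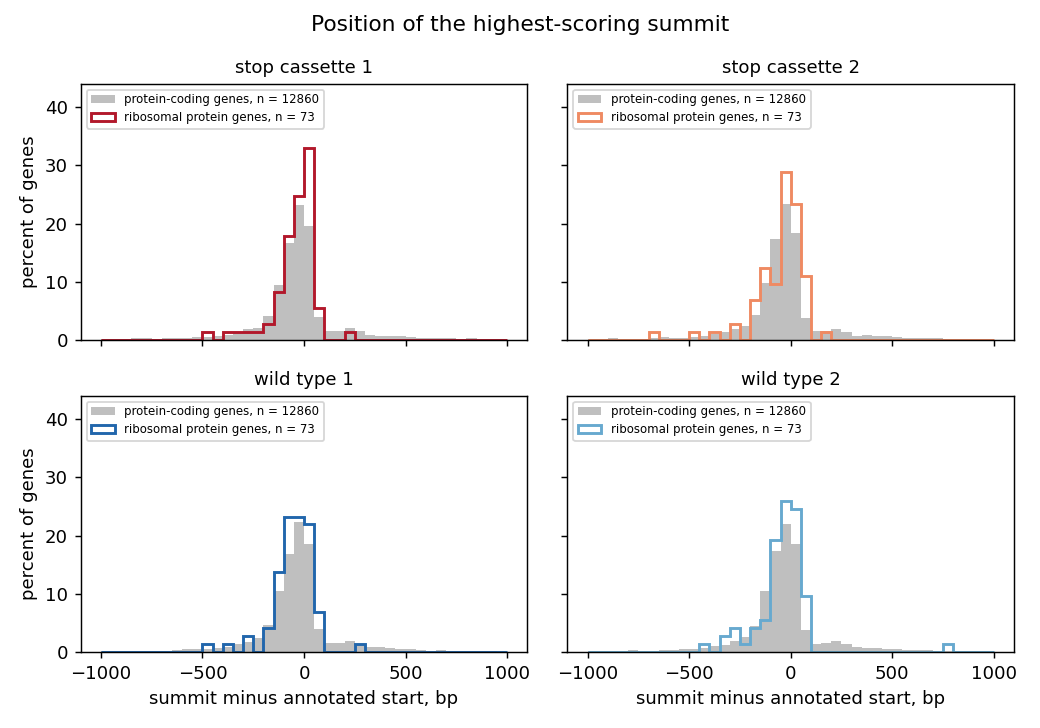
Each panel is 1 library and shows, in bins of 50 bp, where the highest-scoring summit lay relative to the nearest annotated start (negative is upstream), as a percent of genes. Grey bars are the 12860 protein-coding genes open in all 4 lists and the coloured line the 73 open members, which pile up within 100 bp of the start in every library.

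Ranks were also compared by features of the loci, with no test. Small nucleolar RNA genes, which guide the modification of ribosomal RNA, lie inside 28 members, 54 of them in all. The hosts had a median mean percentile of 90.6 and the 45 other open members 90.4. Another protein-coding gene starts within 1 kb of 14 members, such as Nkiras1 at Rpl15, Med22 at Rpl7a and Trappc4 at Rps25. Those had a median of 87.8 and the other 59 a median of 92.5. Open large-subunit members had a median of 88.9 (n = 42) and small-subunit members 91.6 (n = 31).

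Between genotypes, members ranked higher in the stop cassette lists as deposited, and this narrowed once the lists were of equal length. The median over all 76 members was 92.6 and 94.2 in the stop cassette lists and 85.6 and 90.6 in the wild-type lists. The group means were 93.4 ± 1.14 and 88.1 ± 3.57 (SD, n = 2 each), a difference of 5.29 percentile points. The groups did not overlap, and the exact permutation test gave p = 0.33, two-sided, the smallest value possible. Over the open members alone the difference was 5.06 points (exact permutation p = 0.33). Over protein-coding genes open in all 4 lists the medians were 90.9 and 93.65 against 86.0 and 89.6, a difference of 4.47 points (exact permutation p = 0.33). Over all 22380 protein-coding genes, with closed ones at 0, they were 68.3 and 81.1 against 56.6 and 69.95. At equal length the medians of all 76 members were 88.7 and 87.9 against 85.6 and 87.6, a difference of 1.69 points (exact permutation p = 0.33). Those of the protein-coding genes open in all 4 lists were then 86.06 and 86.8 against 86.02 and 86.2, a difference of 0.293 points (exact permutation p = 0.667). Without wild-type replicate 1 the difference of the lists as deposited was 2.76 points.

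Counted gene by gene, both stop cassette percentiles exceeded both wild-type percentiles in 42 of the 73 open members (57.5% of them), and both were lower in 2 (2.74%). The same patterns held for 41.2% and 4.34% of the protein-coding genes open in all 4 lists, and for 39.6% and 3.99% of those open in any list. At equal length 16 members (21.9%) were higher and 7 (9.59%) lower, against 19.5% and 20.6% of the protein-coding genes open in all 4 lists as deposited, the same base as for the members. Of the 14033 protein-coding genes with a summit in any list at equal length, 19.1% were higher and 19.5% lower. All 16 were among the 42, and both lower members were among the 7. Rpl13a changed direction. It was among the 42 as deposited and among the 7 at equal length, at 81.8 and 78.55 with the stop cassette against 82.2 and 83.0. With 2 libraries per genotype no single gene can reach a p below 0.33. Markers of blood cells moved in the same direction in the lists as deposited, a direction shared by 41.2% of the open protein-coding genes. The endothelial marker Kdr did so too, at 82.2 and 90.3 with the stop cassette against 70.2 and 81.7. The medians of the limb mesenchyme, ectoderm and muscle precursor markers overlapped between genotypes. Of the 4 blood markers, Hbb-y, Hba-x and Gata1 were higher in both stop cassette lists and Ptprc had no summit in any list. The embryonic globin gene Hbb-y ranked at 86.0 and 84.9 with the stop cassette and at 52.7 and 58.0 in wild type. At equal length Hbb-y still did not overlap, at 78.5 and 68.5 against 52.7 and 44.4. The blood markers as a set did not stay apart at equal length. Their median over the 4 genes was then 55.96 and 4.51 with the stop cassette and 27.6 and 7.36 in wild type. The part of blood cells in the members' values was not tested.

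The gap between the lower stop cassette percentile and the higher wild-type percentile was widest at Rpl12, Rpl6 and Rpl8. Rpl12 (ENSMUSG00000038900.11, chr2:32817079-32820016), a protein of the ribosomal stalk base whose start lies within 1 kb of that of Lrsam1, ranked at 94.3 and 94.1 with the stop cassette and at 65.3 and 73.4 in wild type. The difference was 24.9 points, and 24.5 at equal length, with values of 91.3 and 87.8 against 65.3 and 64.8. Rpl6 ranked at 92.55 and 95.2 against 77.4 and 78.3, a difference of 16.0 points and of 15.0 at equal length. These 2 genes kept nearly the whole difference when the lists were shortened. Rpl8, a conserved protein near the peptidyl transferase centre, ranked at 86.4 and 82.8 against 57.0 and 72.4, a difference of 19.9 points, of 11.48 at equal length and of 12.3 without wild-type replicate 1. Each of the 3 had an exact permutation p of 0.33. By the difference in means other members exceeded Rpl6 or Rpl8 with a narrower gap, such as Rps10 (22.05 points, 23.9 at equal length), Rpl36 (22.0, and 6.95 at equal length) and Rpl3 (19.1, and 13.5 at equal length). At equal length the genotypes of Rpl36 and Rpl3 overlapped.

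In the other direction there were Rpl35 and Rpl15. Rpl35 (ENSMUSG00000062997.6, chr2:38857100-38861144, minus strand), at the exit of the peptide tunnel, ranked at 87.5 and 92.7 with the stop cassette and at 97.1 and 95 in wild type. It was lower by 5.95 points as deposited (stop cassette minus wild type, -5.95) and by more at equal length (-12.4), and the difference was -3.37 without stop cassette replicate 1. Rpl15 differed by -1.42 points and by -2.59 at equal length. Both had an exact permutation p of 0.33.

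**Figure D5:**
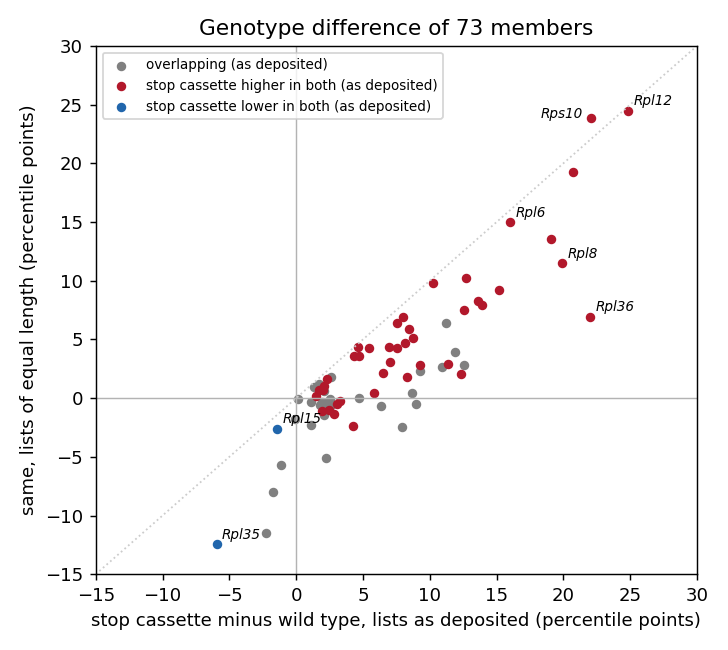
Each point is one of the 73 open members, with the stop cassette minus wild-type difference in mean percentile for the lists as deposited (horizontal) and at equal length (vertical). The dotted line marks equal values, and colours show whether both stop cassette percentiles lay above (red, 42 members) or below (blue, 2 members) both wild-type percentiles as deposited. Most points lie below the dotted line, while Rpl12 and Rpl6 stay close to it.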

How the data were processed

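ATAC-seq peak lists of 4 libraries were used, 2 per genotype, with groups and replicate numbers from the sample titles. Reads were aligned to mm9 with Bowtie2 2.2.6 and Picard was used, per the submitters' processing notes. The deposited peak names record removal of duplicate and mitochondrial reads and a mapping quality of 30. The peak caller, its settings and any shift of reads for Tn5 binding are not given in the sources used here. The deposited score behaves as −log10 of a q-value, since the lowest value in each list is 1.30 to 1.31. It depends on depth, so mid-rank percentiles were taken within each list.

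Annotation (GENCODE M1) and genome sequence (NCBIM37) are of the same build as the lists. Motif sequences used the start of the protein-coding transcript with the longest coding sequence. Calculations used Python 3.11.15, numpy 2.4.6 and pandas 2.3.3. Group means were compared with two-sided exact permutation tests over 6 assignments. Assignment of summits to genes was tested on simulated summits, where 200 of 200 planted ones were recovered among 22380 genes. The members, the lists and the tests were chosen with earlier results of these data known.

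Genes named are the members lacking a summit, the 5 highest and 5 lowest open members, the 3 widest gaps between non-overlapping genotypes in each direction (only 2 were lower), the X-linked members, 4 paralogue pairs and pseudogenes open in all 4 lists. Some genes that this rule takes in are not reported here. Rpl38, Rpl24, Rps19, Rps10, Rpl13a, Rps12, Rps25 and the longest pyrimidine runs were named after their values were seen. So were Rpl22l1, Rpl7l1, Mrps34 and the marker genes outside the family. Alternatives were windows of 500 bp and 2 kb, equal list length, a stricter score (above 5.83), other choices of start, summit or symbols, each library left out, and replicate numbers as pairs.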

Additional observations from a re-analysis of the deposited data

How the results depend on the processing

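The count of 73 open members was 70 with the most upstream start only (Rps2 lost all lists, Rps10 both wild-type lists and Rpl13a wild-type replicate 1) and 72 with the stricter score (Rpl36 lost wild-type replicate 1). The genotypes' mean counts, equal otherwise, then differed by 1.5 and by 0.5 members. Members with both stop cassette percentiles higher fell from 42 to 16 at equal list length and those lower rose from 2 to 7. Leaving out each library gave 47 to 60 higher and 3 to 6 lower members, as fewer values must then stay apart. The difference of 5.29 points in the members' median kept its direction under all alternatives run, between 1.69 at equal length and 13.6 with the stricter score, and from 2.76 (without wild-type replicate 1) to 7.82 (without wild-type replicate 2) when 1 library was left out. Pseudogenes open in all 4 lists numbered 0 at 500 bp and 2 at 2 kb (Rpl34-ps1 and Rpl29-ps1). The mean of the members' median summit distances was -25.75 bp, and 5.13 bp with the most upstream start. With the replicate block, which compares same-numbered libraries, the difference in the median was 5.29 points (exact sign-flip p = 0.5, the smallest that 2 pairs allow). In both pairs 52 members were higher and 4 lower. No share of all protein-coding genes was computed for these counts or for those with 1 library left out. They therefore cannot be read as particular to the members. The labels do not say that a number marks a shared litter or day. Deviations of the replicate 1 libraries correlated at 0.198 over 12860 genes and at -0.165 over the 73 members. Read depth is unknown, which limits what any difference in rank can show.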
